A study of Mus musculus with 6 samples.

Results

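A set of 5 potassium channel genes was followed across the cell classes of the mouse prelimbic cortex: the Kv7 genes Kcnq3 and Kcnq5 and the Kv3 genes Kcnc1, Kcnc2 and Kcnc4. They were chosen by symbol, and all 5 had a row among the 32285 genes of the single-nucleus count matrices. Each of the 6 libraries held the pooled nuclei of 3 male C57BL/6 mice and was the only library of its group. Mothers had a running wheel from shortly after birth until weaning (Run) or stayed sedentary (Sed), and their sons were kept in groups (GH) or in social isolation (SI) after weaning. Cohort 1 consisted of Run GH and Sed GH mice that had been ranked in a tube test of social dominance and were taken from the top and the bottom ranks of their groups, and cohort 2 of mice that had not been ranked, with both housing conditions for the sons of Run and of Sed mothers. The labels give postnatal day 21 as the age, whereas the methods of the study describe adult males. No strain, allele or drug differed between the groups. Because the mice of a library were pooled, the spread between animals was not measured, and housing was varied in cohort 2 only.

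Kv7 channels open slowly at voltages near rest, do not inactivate and hold back repeated firing; muscarinic acetylcholine receptors shut them by depleting a membrane lipid that the channels need, which is why their current is called the M-current. The Kcnq3 subunit works mostly in mixed channels with other Kcnq subunits, and Kcnq5 can build channels by itself or together with Kcnq3. Kv3 channels open only during the peak of an action potential and close again at once, which shortens the spike and lets a neuron fire at high rates. Kcnc1 and Kcnc2 are the subunits best known from fast-spiking parvalbumin interneurons of the cortex, whereas channels with Kcnc4 inactivate quickly.

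On mm10, Kcnq3 (ENSMUSG00000056258) spanned 300.3 kb at chr15:65986387-66286642 on the minus strand and Kcnq5 (ENSMUSG00000028033) spanned 563.5 kb at chr1:21398403-21961942 on the minus strand. The Kv3 genes were shorter. Kcnc1 (ENSMUSG00000058975) covered 42.21 kb at chr7:46396497-46438704 on the plus strand, Kcnc2 (ENSMUSG00000035681) covered 195.9 kb at chr10:112271121-112467024 on the plus strand, and Kcnc4 (ENSMUSG00000027895) covered 21.25 kb at chr3:107438303-107459552 on the minus strand. Nuclear RNA was counted over exons and introns, so a long gene offers more sequence to count than a short one, and levels of different genes were compared only after division by the gene span.

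The promoters of Kcnc1 and Kcnc2 are shown because both genes were higher in interneurons than in pyramidal neurons. Each window runs from 250 bases before to 50 bases after the RefSeq start on GRCm38.p6, 5′ to 3′ on the strand of the gene, with matches of the GC box GGGCGG or its reverse complement in capitals. The Kcnc1 window lies at chr7:46396218-46396517 and that of Kcnc2, of 4 listed windows the one nearest to the annotated gene start, at chr10:112270871-112271170.
Kcnc1: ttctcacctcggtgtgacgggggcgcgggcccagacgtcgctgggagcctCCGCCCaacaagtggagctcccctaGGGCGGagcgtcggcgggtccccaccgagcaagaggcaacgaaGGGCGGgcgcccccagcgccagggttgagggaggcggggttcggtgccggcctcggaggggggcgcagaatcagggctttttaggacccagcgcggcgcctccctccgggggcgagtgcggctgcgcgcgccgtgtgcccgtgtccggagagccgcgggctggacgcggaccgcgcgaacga
Kcnc2: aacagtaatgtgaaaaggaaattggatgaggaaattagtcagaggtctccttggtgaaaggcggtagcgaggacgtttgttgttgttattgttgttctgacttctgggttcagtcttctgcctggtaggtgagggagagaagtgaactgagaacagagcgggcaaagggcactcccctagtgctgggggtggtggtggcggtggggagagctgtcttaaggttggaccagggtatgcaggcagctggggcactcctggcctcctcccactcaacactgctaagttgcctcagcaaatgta
The Kcnc1 window held 3 GC boxes, 41 CpG pairs and 74.7% G or C. The Kcnc2 window held no GC box, 5 CpG pairs and 52.7% G or C, so these windows differed in base composition. Of all 32851 promoter windows, 35.7% held GGGCGG on either strand and 3.46% had as many CpG pairs as that of Kcnc1, against a median of 7 pairs. Neither window contained TATAAA, which 13.6% of windows held, and CCAAT occurred once in that of Kcnc2 and in 37.4% of all windows. The Kcnq5 window held no GC box and 20 CpG pairs, the Kcnc4 window 1 GC box and 17 CpG pairs.

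In total, 42597 nuclei passed the filters, between 4997 and 9936 per library. The median nucleus held 5585 and 6250 UMIs in the cohort 1 libraries, but 1637 to 4033 in those of cohort 2, with the lowest value in Sed GH. Droplets without a nucleus held 19.1% and 19.3% of the UMIs of a median nucleus in cohort 1 and 4.28% to 7.68% in cohort 2, so free RNA was more abundant in cohort 1. Between 5 and 22 cell barcodes were shared by any pair of libraries. Classes were named by marker genes after clustering without the 5 genes and their relatives, and each name stands for nuclei like that class. PV, SST, VIP and NPY are the interneurons marked by parvalbumin, somatostatin, vasoactive intestinal peptide and neuropeptide Y. Pvalb itself was present at 33.1 to 66.6 CPM (UMIs of a gene, scaled to the total UMIs of its class in a library) in PV nuclei and at 0.428 to 3.06 in pyramidal nuclei, whereas another PV marker, Pthlh, was at 0 in 2 libraries. The SST marker Chodl was at 0 in 3 libraries, and the VIP markers Calb2, Htr3a and Crh were each at 0 in 1. In VIP nuclei the 6 VIP markers summed to 177 to 325 CPM, against 2.075 to 11.51 in pyramidal nuclei. The 6 PV markers summed to 370 to 676 CPM in VIP nuclei and the 6 NPY markers to 348 to 651, above the VIP markers. A pair of pyramidal clusters that matched no layer is called here by a leading gene, the Deptor cluster and the Rxfp1 cluster; both were matched between cohorts after their genes had been seen. Microglia, oligodendrocytes and their precursors carried much pyramidal RNA: the summed level of 7 pyramidal markers was 2595 to 3295 CPM in microglia and 1635 to 3080 in oligodendrocytes, against 4104 to 4559 in pyramidal nuclei. The levels of neuronal genes in these 3 glial classes are therefore not described further.

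Kcnc2 set PV nuclei apart from every other class. In PV nuclei Kcnc2 stood at 3692 CPM in Run GH and 3501 in Sed GH of cohort 1, and at 4528 and 4610 CPM in the same groups of cohort 2, and at 4584 in Run SI and 4561 in Sed SI. All 6 values lay above the highest value in any other class, and the 2 values of cohort 1 were the lowest. SST nuclei came next with 1359 to 1746 CPM (mean 1536 ± 178 SD, n = 6), a range that depended on the clusters in the class: Sed GH of cohort 1 was at 1104 without a cluster that had no named counterpart in cohort 2, and Sed SI was at 1972 with that counterpart added. They were followed by VIP nuclei with 580 to 1042. NPY nuclei held 242 to 465 CPM, and pyramidal nuclei 111 to 251. Within the pyramidal classes Kcnc2 ranged from 228 CPM on average in layer 2/3 to 54.5 in layer 5. Droplets without nuclei held 456 and 449 CPM of Kcnc2 in cohort 1 and 81.9 to 105 in cohort 2. After subtraction of this free RNA, PV nuclei held 4244 to 4979 CPM, and layer 2/3 and layer 5 averaged 221 and 31.15.

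**Figure D1:**
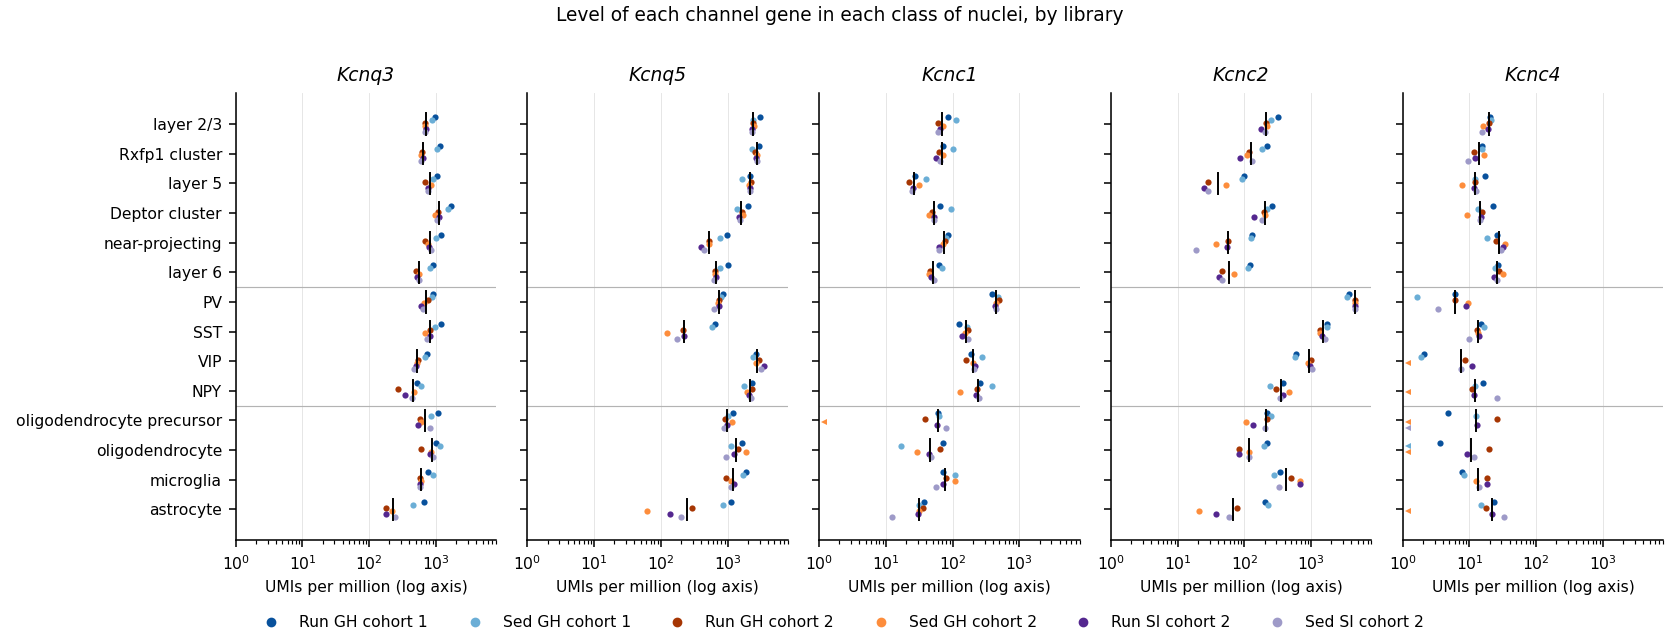
Level of each of the 5 channel genes (horizontal axis, CPM, log scale) in the 14 classes of nuclei (vertical axis), with 1 point per library in the colour of its group, a vertical line at the median of the libraries above 0 and triangles at the left edge for libraries at 0. Kcnc2 in PV nuclei, at 3501 to 4610, lies above every other class, whereas Kcnq5 is lowest among neurons in SST nuclei, where the cohort 1 libraries stand at 649 and 574 and those of cohort 2 at 124 to 224.

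Kcnc1 was also highest in PV nuclei, but reached into the other interneuron classes more evenly. Its level in PV nuclei was 388, 473, 496, 443, 432 and 439 CPM in the order of libraries used above. NPY nuclei had 256, 387, 229, 128, 222 and 252 CPM, VIP nuclei 160 to 279 and SST nuclei 126 to 170. The lowest PV value lay just above the highest NPY value, and the NPY and VIP ranges overlapped. In pyramidal nuclei Kcnc1 stood at 51.5 to 90.3 CPM, with layer 5 lowest at 21.8 to 39.3. In cohort 2 the droplets without nuclei held more Kcnc1 than pyramidal nuclei of any library, at 104 to 123 CPM, and in cohort 1 they held 57.1 and 64.4.

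Kcnc4 gave the fewest UMIs of the 5 genes. Among the classes it was highest in near-projecting pyramidal neurons, with a mean of 27.6 ± 5.65 CPM (SD, n = 6), and in layer 6, with 26.5 ± 2.93 CPM. Droplets without nuclei held 17.7 and 20.3 CPM of Kcnc4 in cohort 1 and 36.2 to 41.3 in cohort 2, above these means, and after subtraction of this free RNA the 2 classes held 27.4 and 26.4 on average. PV nuclei held 1.64 to 9.56 CPM, which rested on 32 UMIs in all 6 libraries together and on a single UMI in Sed GH of cohort 1. In VIP nuclei 14 UMIs were counted in all, and none in Sed GH of cohort 2, which at that depth allows a level of up to 34.98 CPM. Differences of Kcnc4 among the interneuron classes were thus measured with few molecules, and intervals and limits of this kind cover counting error only.

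Kcnq5 divided the interneurons. In VIP nuclei it stood at 2637, 2417, 2927, 2659, 3490 and 3167 CPM, and in NPY nuclei at 1752 to 2326. PV nuclei held 852, 801, 753, 704, 749 and 629 CPM, below every VIP and NPY value. SST nuclei held 649 and 574 CPM in cohort 1, and 212, 124, 224 and 174 CPM in cohort 2. The cohorts did not overlap in SST nuclei, but the class was made of different clusters: in cohort 1 it held a cluster of 93 nuclei led by Crybg1 and Pard3b, whereas a cluster of 213 nuclei in cohort 2 that shared 5 of its 10 leading genes was not named and stayed out. Without the former, cohort 1 held 632 and 544 CPM, and with the latter, cohort 2 held 231 to 324. Droplets without nuclei held Kcnq5 at 2248 and 2064 CPM in cohort 1 and at 392 to 583 in cohort 2, and after subtraction of this free RNA the SST values of cohort 1 were 290 and 207 CPM, beside 107 to 194 in cohort 2. Astrocytes moved alike, with 1135 and 840 CPM in cohort 1 and 61.9 to 287 in cohort 2.

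Kcnq5 also differed among the pyramidal classes. Layer 2/3 nuclei held 3051 CPM in Run GH of cohort 1 and 2292 to 2473 in the other 5 libraries. The Rxfp1 cluster held 2304 to 2958 and layer 5 nuclei 1630 to 2267 CPM. Layer 6 nuclei held 1003 and 766 CPM in cohort 1 and 624 to 667 in cohort 2, and near-projecting nuclei averaged 607. The ranges of layer 2/3, layer 5 and the Rxfp1 cluster lay wholly above that of layer 6.

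Kcnq3 was the most even of the 5 genes. Among neurons its mean level ran from 1234 CPM in the Deptor cluster through 863 in SST, 741 in PV and 576 in VIP nuclei to 439 in NPY nuclei. Astrocytes averaged 324 CPM. In PV nuclei the values were 913 and 883 CPM in cohort 1 and 590 to 749 in cohort 2, and in pyramidal nuclei 1198 and 1041 in cohort 1 and 705 to 764 in cohort 2. NPY nuclei had the lowest values among neurons in the mean, between 275 and 597 CPM.

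The 14 classes were ranked by the level of each gene, and neighbours in that order were compared. Of 65 pairs of neighbouring classes, 14 differed in the same direction in all 6 libraries, the most an exact two-sided sign-flip permutation test can show (p = 0.03125, the smallest it can give). After Benjamini-Hochberg adjustment over the 65 pairs the smallest of these exact permutation values was 0.145 and no pair passed, although 6 libraries leave such a test little room over so many pairs. PV and SST nuclei were among the 14 pairs for Kcnc2, as were PV and NPY nuclei for Kcnc1. Others held a glial class that carried pyramidal RNA, such as VIP nuclei and microglia for Kcnc2 and SST nuclei and microglia for Kcnc1. The model fitted across all genes, given further on for PV and SST nuclei, is a separate test.

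Divided by gene span, the balance of the genes turned over between PV and pyramidal nuclei. In VIP nuclei Kcnq5 stayed highest, with 512 CPM per 100 kb beside 495 of Kcnc1 and 433 of Kcnc2. PV nuclei held 2167 CPM of Kcnc2 and 1055 of Kcnc1 per 100 kb, against 247 of Kcnq3, 133 of Kcnq5 and 28.1 of Kcnc4. Pyramidal nuclei held 345 CPM of Kcnq5 and 288.5 of Kcnq3 per 100 kb, ahead of 150 of Kcnc1, 85.9 of Kcnc4 and 84.7 of Kcnc2. Relative to pyramidal nuclei of the same library, where the gene span cancels, the log2 ratio of Kcnq5 to Kcnq3 differed by 1.14 ± 0.29 (SD, n = 6) in VIP nuclei, -1.16 ± 0.27 in PV nuclei and -2.84 ± 0.98 in SST nuclei.

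The class differences were then tested on the counts summed per class and library, with the library as a block. In PV against pyramidal nuclei, Kcnc2 was higher by 4.55 ± 0.12 on the log2 scale (SE, adjusted p = 4.6e-27, edgeR quasi-likelihood test) and Kcnc1 by 2.68 ± 0.09 (adjusted p = 5.33e-24). Kcnq5 was lower, with a log2 fold change of -1.54 ± 0.08 (adjusted p = 5.93e-19), as were Kcnc4, at -1.76 ± 0.22 (adjusted p = 2.14e-08), and Kcnq3, at -0.38 ± 0.07 (adjusted p = 3.89e-05). All 5 genes passed the threshold, where 45.6% of the 14918 genes tested did. The differences had the same sign in both cohorts, and that of Kcnc2 was 3.85 in cohort 1 and 4.88 in cohort 2. The 7 pyramidal markers summed to 433 to 1302 CPM in PV nuclei, and none of the 7 was at 0 there. Their part in the fold changes was not tested.

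**Figure D2:**
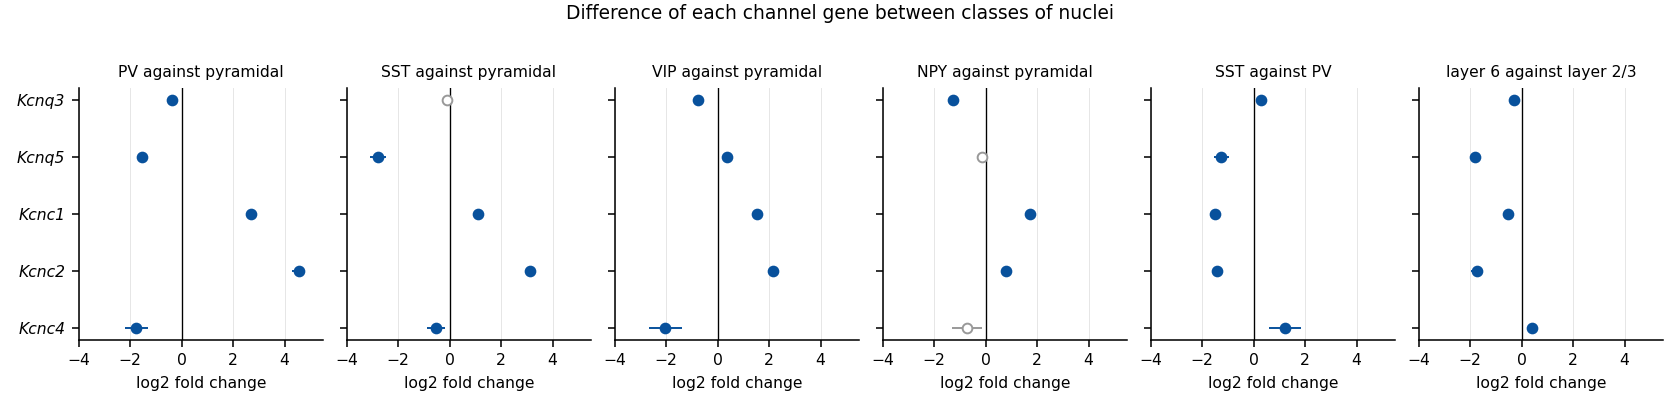
Log2 fold change (horizontal axis) of each channel gene (vertical axis) in 6 comparisons of classes, 1 per panel, as edgeR estimates with 95% intervals, filled where the adjusted p is under 0.05. Kcnc2 and Kcnc1 lie to the right in every interneuron class set against pyramidal nuclei, with 4.55 and 2.68 in PV nuclei, whereas Kcnq5 changes side between SST nuclei (-2.79) and VIP nuclei (0.38).

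In SST against pyramidal nuclei, Kcnc2 was higher by 3.12 ± 0.09 and Kcnc1 by 1.12 ± 0.10 on the log2 scale, whereas Kcnq5 was lower, at -2.79 ± 0.16. Over 21 fits Kcnc2 ran from 2.36 to 3.58 and Kcnc1 from 0.66 to 1.40. Kcnc4 passed with -0.54 ± 0.18 (adjusted p = 0.0138) and Kcnq3 did not, at -0.12 (adjusted p = 0.252), although it passed with the unnamed cluster of cohort 2 added, at -0.21 (adjusted p = 0.0169). Kcnc4 did not pass in cohort 1 alone (adjusted p = 0.123), in cohort 2 alone (adjusted p = 0.0615), under DESeq2 (adjusted p = 0.0512) or with thinned nuclei (adjusted p = 0.204). That made 4 of the 5 genes, beside 35.5% of all genes tested. The Kcnq5 difference was -1.89 in cohort 1 and -3.42 in cohort 2 with the clusters as named, -1.96 in cohort 1 without its extra cluster, and -2.87 in cohort 2 with the counterpart added. Whether the cohorts differed in this was not tested.

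Among the interneuron classes, VIP nuclei alone were called higher in Kcnq5 than pyramidal nuclei as a whole. The difference was 0.38 ± 0.10 on the log2 scale (adjusted p = 0.00044), although cohort 1 alone gave 0.19 (adjusted p = 0.288) and cohort 2 alone 0.49 (adjusted p = 2.07e-07). The VIP range of 2417 to 3490 CPM overlapped the Rxfp1 cluster (2304 to 2958) and layer 2/3 (2292 to 3051). VIP nuclei lay above the Rxfp1 cluster in 4 of 6 libraries. Kcnc2 was higher by 2.17 and Kcnc1 by 1.54, whereas Kcnq3 was lower, at -0.76, and Kcnc4, at -2.04 ± 0.33. The Kcnc4 difference ran from -3.47 to -1.03 over 17 fits. All 5 genes were called, against 30.2% of all genes. Kcnc2 had 1.28 in cohort 1 and 2.66 in cohort 2, a gap that was not tested. VIP nuclei of cohort 2 held a cluster of 40 nuclei led by Gm39185, whereas a cluster of 19 nuclei led by that gene in cohort 1 stayed unnamed. With all nuclei thinned to 1000 UMIs, Kcnq5 and Kcnc4 no longer passed in this comparison.

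In NPY nuclei Kcnc1 led, with a log2 difference of 1.74 from pyramidal nuclei, ahead of Kcnc2 with 0.81, and Kcnq3 was lower, at -1.28. These 3 genes were called, where 27.6% of all genes were. Kcnq5 had -0.15 (adjusted p = 0.19) and Kcnc4 -0.73 (adjusted p = 0.0539). Kcnq5 passed in cohort 1 alone, at -0.27 (adjusted p = 0.032), and with thinned nuclei, at -0.31 (adjusted p = 0.0436), and Kcnc4 passed in 3 of 17 fits. The Kcnc2 difference was 0.24 in cohort 1, where it did not pass (adjusted p = 0.241), and 1.15 in cohort 2.

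SST and PV nuclei were compared directly. Relative to PV nuclei, SST nuclei had less Kcnc1 (-1.52 on the log2 scale), less Kcnc2 (-1.42) and less Kcnq5 (-1.25 ± 0.15), but more Kcnq3 (0.27 ± 0.07, adjusted p = 0.00703) and more Kcnc4 (1.22 ± 0.32, adjusted p = 0.00418). All 5 differences passed the threshold, which 24.9% of genes did. The Kcnq5 difference was -0.41 in cohort 1 and -1.85 in cohort 2, and -1.30 in cohort 2 with the unnamed cluster added. Kcnq3 did not pass without Run GH of cohort 1 (adjusted p = 0.118), without Run SI (adjusted p = 0.0555), under DESeq2 (adjusted p = 0.0555) or with thinned nuclei (adjusted p = 0.394). Kcnc4 was tested in 16 fits and fell under the filter on low counts in the others, among them those of cohort 2 alone, of thinned nuclei, without Run GH of cohort 1 and without the extra SST cluster of cohort 1. In cohort 2 with the unnamed cluster added it had 1.00 and did not pass (adjusted p = 0.0562).

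Layer 6 nuclei had less Kcnq5 than layer 2/3 nuclei, with a log2 fold change of -1.82 ± 0.05, and less Kcnc2, at -1.74 ± 0.11. The Kcnc2 difference ran from -2.23 to -1.22 over 19 fits. Kcnc1 was lower too, at -0.52, and so was Kcnq3, at -0.30, whereas Kcnc4 was higher, at 0.41 ± 0.09 (adjusted p = 0.00194). All 5 genes were called, against 40.7% of all genes. Kcnc4 did not pass with thinned nuclei, at 0.25 (adjusted p = 0.34). The Kcnq3 difference did not pass in cohort 1 alone, at -0.08 (adjusted p = 0.298), and was -0.37 in cohort 2. Layer 2/3 of cohort 2 held a cluster of 4260 nuclei that shared 3 of 10 leading genes with an unnamed cluster of 1376 nuclei in cohort 1. It also shared Kcnh5, Rorb and Col26a1 with a cluster of 1154 nuclei named layer 2/3 in cohort 1. Leaving it out therefore does not match the cohorts. Without the cluster of 4260 nuclei Kcnq3 turned to 0.15 (adjusted p = 0.16), and with the unnamed one added it was -0.41 (adjusted p = 1.08e-06).

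The share of nuclei with at least 1 UMI showed the same classes nucleus by nucleus. To remove differences in depth, each nucleus was thinned to 1000 UMIs, which left out 626 pyramidal and 51 PV nuclei of Sed GH in cohort 2. At that depth Kcnc2 was seen in 92.2% to 97.6% of PV nuclei, 67.6% to 76.3% of SST nuclei and 36.4% to 52.9% of VIP nuclei. Pyramidal nuclei reached 9.5% to 21.6% and astrocytes, which should lack the gene, 0% to 18.1%. These ranges overlap, so the shares alone do not separate pyramidal nuclei from free RNA in every library. After subtraction of free RNA, layer 2/3 nuclei held 180 to 292 CPM of Kcnc2, layer 5 nuclei 21.7 to 52.1 and astrocytes 11.0 to 150. Kcnc1 was seen in 27.7% to 36.9% of PV and 5.14% to 8.34% of pyramidal nuclei, with 0% to 4.09% in astrocytes. Without thinning the PV shares were 98.1% to 100% for Kcnc2 and 45.2% to 90.1% for Kcnc1, at a median of 1351 to 5670 UMIs per PV nucleus and 964 to 4480 per astrocyte.

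**Figure D3:**
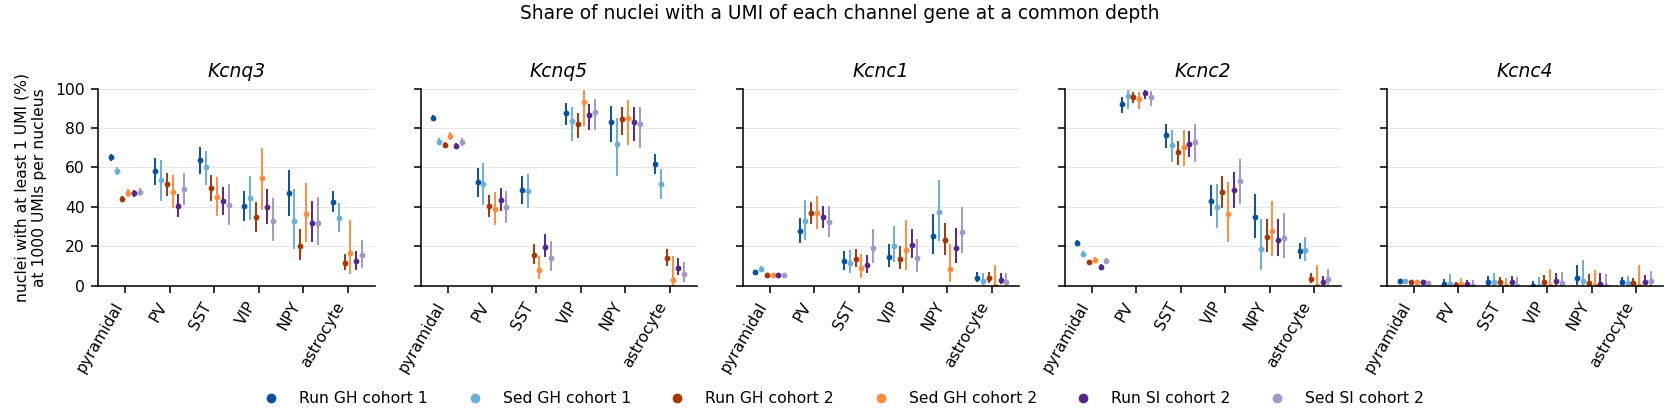
Share of nuclei with at least 1 UMI after thinning to 1000 UMIs (vertical axis, percent) for each gene and 6 classes (horizontal axis), with 1 point per library and exact 95% binomial intervals. Kcnc2 separates PV nuclei, at 92.2% to 97.6%, from pyramidal nuclei, at 9.5% to 21.6%, and Kcnq5 in SST nuclei and astrocytes is higher in the libraries of cohort 1.

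Kcnq5 was seen in 81.8% to 93.2% of VIP nuclei and 72.1% to 85.1% of NPY nuclei. In SST nuclei it was seen in 48.7% and 48.0% in cohort 1 but in 7.83% to 19.8% of nuclei in cohort 2, and in astrocytes in 61.9% and 51.8% against 2.78% to 14.02%. By these shares SST nuclei lay below astrocytes in both cohort 1 libraries and above them in each of the 4 libraries of cohort 2, whereas by CPM they also lay below astrocytes in Run GH of cohort 2 (212 and 287) and in Sed SI (174 and 199). Without thinning the SST shares were 95.3% and 92.0% in cohort 1 and 13.5% to 41.0% in cohort 2. Kcnc4 was seen in at most 2.19% of pyramidal nuclei and at most 2.42% of astrocytes, which is too close to tell these classes apart.

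Beside the 5 genes, 23 relatives and partners of these channels and 29 other voltage-gated potassium channel genes were followed. In PV against pyramidal nuclei, 2 of 18 tested relatives were higher and 11 lower, with a median log2 fold change of -0.39, and 4 of 25 other channels were higher and 15 lower, with a median of -0.92, beside 45.6% of all genes called and a median of 0.003 over all genes. Kcns3, a silent subunit that modifies other channels, was higher by 4.75 ± 0.12. Kcnd3, which carries A-type current, was lower, at -2.37, as was the delayed rectifier Kcnb2, at -1.72.

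In SST nuclei Kcns3 was higher than in pyramidal nuclei by 4.18 ± 0.15, and the counts were 2 higher and 5 lower of 18 relatives and 4 higher and 14 lower of 26 other channels, beside 35.5% of all genes, with 2550 higher and 2846 lower. The ether-a-go-go type channels Kcnh1, Kcnh3 and Kcnh7 were lower there, at -2.22, -2.24 and -2.61. In VIP nuclei 3 relatives were higher and 7 lower, and 2 other channels were higher and 12 lower of 25, beside 30.2% of all genes, with 1957 higher and 2713 lower. NPY nuclei had 1 higher and 7 lower relatives and 3 higher and 12 lower other channels, among them Kcns3 at 4.51, beside 27.6% of all genes, with 1541 higher and 2699 lower. SST nuclei differed from PV nuclei in 6 relatives that were higher and 2 that were lower of 17, and in 7 and 5 of 15 other channels, with more Kcnd3 (2.44) and Chrm3 (1.99), a muscarinic receptor, and less Kcnh7 (-1.95) and Kcnh1 (-1.28), beside 24.9% of all genes. In layer 6 against layer 2/3, 3 relatives were higher and 9 lower, and 2 other channels were higher and 12 lower, led by Kcng3 at -3.22 and Kcnb2 at -2.23, beside 40.7% of all genes, with 2616 higher and 3418 lower.

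Over 84 points, 14 classes in each of the 6 libraries, the genes most like each member in their log2 levels were listed among 6909 genes. These points share libraries and depth, and the values are descriptions. Kcnq5 was most like Kcnip4 (Pearson r = 0.882), Msra (0.867) and Sorcs3 (0.828). Kcnc2 was most like Col19a1 (0.859), Cntnap3 (0.856) and 6330411D24Rik (0.820), and Kcnc1 most like Usp13 (0.848), Gnal (0.844) and Las1l (0.832). Kcnq3 was most like Fam189a1 (0.817), D430041D05Rik (0.796) and Map6 (0.784). Kcnc1 and Kcnc2 had r = 0.725 with each other, whereas Kcnq3 and Kcnq5 had 0.300. Kcnc4 was below the minimum of 20 CPM for this list.

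The next question was whether maternal running or isolation changed the 5 genes. In a model with maternal activity, housing and cohort, none of them passed in Run against Sed pyramidal nuclei, and 0% of all genes did by edgeR, although 1312 of 17947 genes had an unadjusted p under 0.05; DESeq2 called 48 genes, none of them a member. This rested on both libraries of cohort 1: edgeR called 2469 of 18507 genes without its Run GH library and 2741 of 18580 without its Sed GH library. Kcnc1 came closest, with a log2 fold change of -0.23 ± 0.09 (adjusted p = 0.677), and Kcnq5 had 0.07 ± 0.16. In PV nuclei, where 0.136% of genes passed, the 4 genes tested ranged from -0.06 to 0.14, and that of Kcnc2 was 0.01 with a 95% interval of -0.23 to 0.25. In SST nuclei 0.0211% of genes passed and no member did, with Kcnq5 at 0.37 ± 0.15 (adjusted p = 0.889). In astrocytes 0.0563% passed and again no member did. With 2 residual degrees of freedom the fit leaves small differences undetected.

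Isolated and group-housed mice were compared likewise. No member passed in pyramidal, PV or SST nuclei, where 0% of genes passed in each, or in astrocytes, where 0.0113% did. At an unadjusted p under 0.05 in edgeR there were 167 genes in pyramidal, 163 in PV and 207 in SST nuclei, and DESeq2 called 0 genes in each of the 4 classes. In pyramidal nuclei 17 genes passed without Run GH of cohort 1 and 42 without Sed GH of cohort 1. The member folds in pyramidal nuclei lay between -0.25 (Kcnc2) and 0.07 (Kcnq3), and in PV nuclei between -0.21 (Kcnq3) and 0.01 (Kcnc2). No member passed for a difference of the maternal effect between housing conditions, in pyramidal nuclei (0% of genes called by edgeR, 59 at an unadjusted p under 0.05) or in PV nuclei (0% called, 198 at that level), and DESeq2 called 0 genes in either. In pyramidal nuclei Kcnc2 had -0.53 with a 95% interval of -1.21 to 0.15 and Kcnq5 had -0.35 with one of -1.10 to 0.40. These intervals were wide, although they take a normal distribution, which makes them too narrow with so few degrees of freedom. The model for this term let the maternal effect differ by housing but not by cohort. It thus set the SI pair against the GH pairs of both cohorts, and the gap between those GH pairs was its residual. Housing and cohort are therefore mixed in these values, and a gap between cohorts widens their error.

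Cohort was compared next. In pyramidal nuclei, 37.9% of genes differed between cohort 2 and cohort 1, and 3 of the 5 members did. Kcnq3 fell by 0.79 ± 0.13 on the log2 scale (adjusted p = 0.00648), Kcnc1 by 0.72 ± 0.11 (adjusted p = 0.00504) and Kcnc2 by 0.72 ± 0.21 (adjusted p = 0.0414). Kcnc4 had -0.37 (adjusted p = 0.0587) and Kcnq5 -0.20 (adjusted p = 0.459). Cohort moved with gene span: genes of 200 kb or more had a median log2 ratio of cohort 2 to cohort 1 of -0.33 in Run GH and -0.28 in Sed GH, and genes under 50 kb had 0.49 and 0.27. With this trend removed, Kcnc1 (-0.54, adjusted p = 0.0131) and Kcnq3 (-0.33, adjusted p = 0.0364) still passed and Kcnc2 (-0.30, adjusted p = 0.256) did not. Kcnc2 passed in 9 of 16 fits and was lost also after subtraction of free RNA, at -0.36 (adjusted p = 0.334), with at least 1000 genes per nucleus, and without any 1 library of cohort 2. Without Run GH of cohort 2 none of the 5 passed while 2950 of all genes did, and without Sed GH of cohort 1 all 5 passed while 9109 of all genes did.

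In PV nuclei 26.8% of genes differed between cohorts, and Kcnq3 was the member that passed, at -0.42 ± 0.15 (adjusted p = 0.0421). It did not pass under DESeq2 (adjusted p = 0.158), after subtraction of free RNA (adjusted p = 0.196), with thinned nuclei (adjusted p = 0.315), or without Run GH of cohort 1 or any 1 library of cohort 2 (adjusted p = 0.101 to 0.267). It was at 0.03 with the span trend removed, whereas Kcnc2 was then higher in cohort 2 by 0.66 ± 0.09 (adjusted p = 2.81e-05), beside 0.26 (adjusted p = 0.217) before. Kcnq5 had -0.27 (adjusted p = 0.184), turned to 0.18 with the span trend removed, and passed as higher in cohort 2 after subtraction of free RNA, at 0.52 (adjusted p = 0.0357). Cohorts differed in tube testing, selection by rank, free RNA, depth, gene span and makeup of the classes at once, and these cannot be told apart. PV nuclei of cohort 2 held a cluster of 62 nuclei with Unc5b and Cntnap5b among its leading genes. In cohort 1 a cluster with both stayed unnamed, and PV clusters were not matched between cohorts. Of the relatives in pyramidal nuclei, 2 were higher and 8 lower of 19, and of the other channels 4 were higher and 10 lower of 27, beside 37.9% of all genes, with Pip5k1c at -0.98 and Chrm1 at -0.94.

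Maternal running was associated with Kcnq5 and Kcnc2 differently in the 2 cohorts. In pyramidal nuclei Kcnq5 stood at 2405 CPM in Run GH and 1667 in Sed GH of cohort 1, at 1913 and 2029 in Run GH and Sed GH of cohort 2, and at 1780 and 1883 in Run SI and Sed SI. Kcnc2 stood at 251 and 190 CPM in cohort 1, and at 143, 160, 111 and 142 in cohort 2. Summed over all pyramidal nuclei, both genes were thus higher in the Run library in cohort 1 and lower in both Run libraries of cohort 2. For Kcnq5 the log2 ratio of Run to Sed was 0.53 in cohort 1 and -0.08 in each pair of cohort 2, and for Kcnc2 it was 0.41 in cohort 1 and -0.16 and -0.35 in cohort 2.

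**Figure D4:**
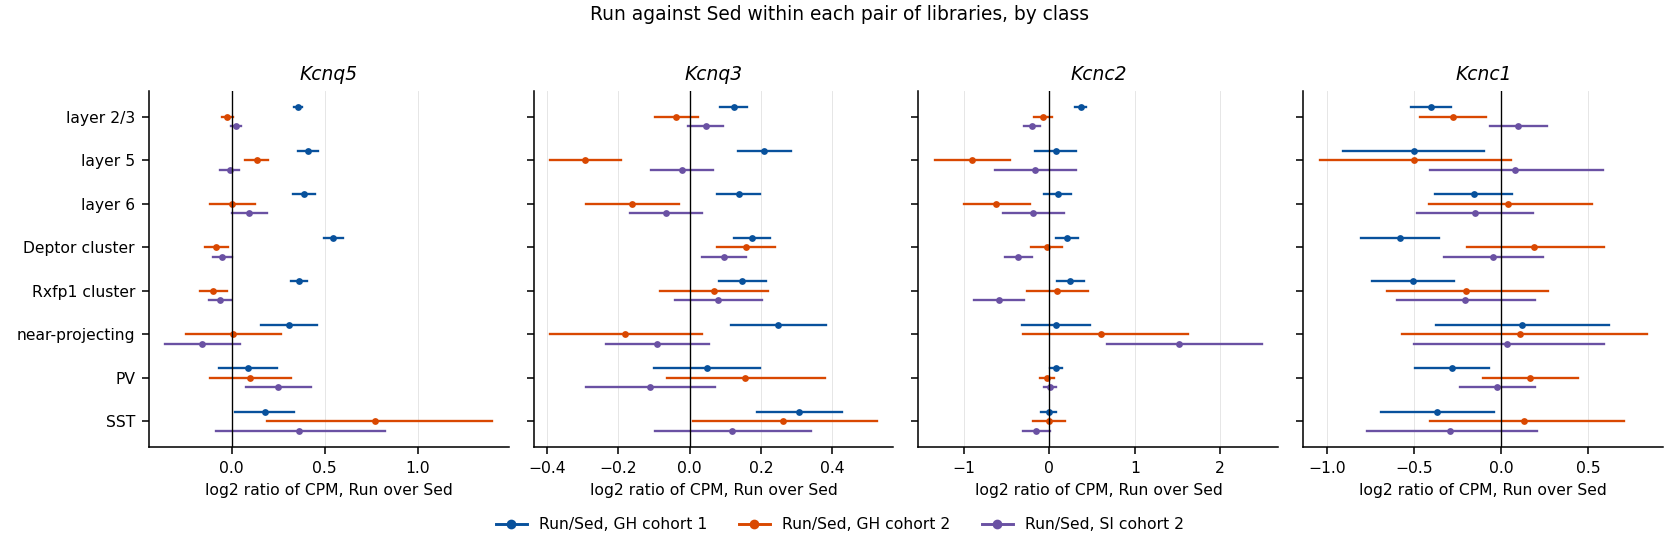
Log2 ratio of CPM in Run over Sed (horizontal axis) for 4 of the genes in 6 pyramidal classes, PV and SST nuclei (vertical axis), with 1 point for each of the 3 pairs of libraries and 95% intervals that cover counting error only. Kcnq5 lies above 0 in all 6 pyramidal classes in cohort 1, at 0.31 to 0.55, and between -0.16 and 0.13 in both pairs of cohort 2.

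The term for this difference was -0.74 ± 0.10 for Kcnq5 (adjusted p = 9.96e-05) and -0.80 ± 0.13 for Kcnc2 (adjusted p = 0.000498), as fitted after normalization with 1 residual degree of freedom, where 9.44% of genes passed. Kcnq3 had -0.35 ± 0.11 (adjusted p = 0.0517) and passed in some alternatives, among them layer 5 alone, at -0.52 (adjusted p = 0.00542), and thinned nuclei, at -0.48 (adjusted p = 0.00789). Kcnc1 had 0.12 and Kcnc4 -0.01. The p-values of this term draw mostly on spread pooled over all genes, since a single gene leaves 1 residual degree of freedom. That degree of freedom lies within cohort 2, because the model fits the libraries of cohort 1 exactly. The p-values therefore hold no measure of the spread between the cohort 1 libraries. The makeup of the pyramidal nuclei moved with it, since layer 6, the layer with little Kcnq5, made up 10.5% of them in Run GH and 24.1% in Sed GH of cohort 1, but 17.9% in Run GH and 11.8% in Sed GH of cohort 2. Within single classes the Run to Sed ratio of Kcnq5 in cohort 1 was between 0.31 and 0.55 on the log2 scale, and its counting interval lay above 0 in 6 of 6 pyramidal classes. In cohort 2 the ratios of the single classes ran from -0.10 to 0.13 in the GH pair and from -0.16 to 0.10 in the SI pair, on both sides of 0. For Kcnc2 the ratios of single classes ran from 0.07 to 0.37 in cohort 1, with the counting interval above 0 in 3 of 6 classes. In cohort 2 those of Kcnc2 ran from -0.91 to 0.60 in the GH pair, with 2 intervals below 0, and from -0.59 to 1.52 in the SI pair, with 3 intervals below 0 and 1 above. The term for Kcnq5 was -0.48 in layer 2/3 (adjusted p = 0.0079), -0.50 in layer 5 (adjusted p = 0.000944) and -0.45 in layer 6 (adjusted p = 0.0338), and it was -0.76 in the Deptor cluster (adjusted p = 1.74e-08) and -0.59 in the Rxfp1 cluster (adjusted p = 0.00259). For Kcnc2 it was -0.63 in layer 2/3 (adjusted p = 0.00167, but 0.0616 without the layer 2/3 cluster of 4260 nuclei in cohort 2, where Kcnq5 had 0.0374), -0.78 in layer 5 (adjusted p = 0.0477) and -0.56 in the Deptor cluster (adjusted p = 0.021). It did not pass in layer 6, at -0.59, or in the Rxfp1 cluster, at -0.67 (adjusted p = 0.111 and 0.0513). In near-projecting nuclei neither passed, with -0.52 for Kcnq5 (adjusted p = 0.225) and 0.93 for Kcnc2 (adjusted p = 0.425). Cohort 1 held a single pair of libraries, so its maternal difference, the difference between these 2 libraries and the selection of their mice by rank cannot be told apart.

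Other channels differed between cohorts in the same term, 1 of 27 being higher and 4 lower, with Kcnh5 at -1.21, Kcnb2 at -0.52, Kcnh7 at -0.46 and Kcnh3 at 0.61, and of the relatives 2 of 19 were higher and 3 lower, beside 9.44% of all genes. In PV nuclei 1.24% of genes passed for this term and no member did, with Kcnc2 at -0.20 (adjusted p = 0.542) and Kcnq5 at -0.02. When a library of cohort 1 was left out, the Run against Sed comparison in pyramidal nuclei rested on cohort 2, many genes passed, as given above, and Kcnc2 was then among them, with -0.34 without Run GH (adjusted p = 0.00424) and -0.35 without Sed GH (adjusted p = 0.00133). Kcnq5 passed in the latter case, with -0.17 (adjusted p = 0.0403), a sign opposite to that with all libraries.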

How the data were processed

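Nuclei of the prelimbic cortex were profiled with 10x Chromium 3′ V3 chemistry in 6 libraries. Per the labels, the authors aligned reads to mm10 with Cell Ranger 6.0.0, whereas the matrix header names Cell Ranger 4; introns were included. The authors deposited unnormalized UMI counts per gene for every barcode. Nuclei with 500 to 4000 genes, at most 1% mitochondrial UMIs and a UMI minimum per library (the 99th percentile of the largest barcodes divided by 10) were kept.

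Each cohort was clustered by itself (scanpy 1.11.5, leidenalg 0.10.2, 35 components, 20 neighbours, resolution 0.6) without the 5 genes and the 2 gene lists, and clusters were named by marker sets. The naming cutoffs were set after the clusters, but not the levels of the 5 genes by class, had been seen. The leading genes listed for the clusters included Kcnc2 in an interneuron cluster with PV markers in each cohort. Counts were summed per library and class. edgeR 4.0.16 (R 4.3.3) gave the quasi-likelihood tests with TMM normalization, its filter on low counts and Benjamini-Hochberg adjustment over all genes tested, at a threshold of 0.05. DESeq2 1.42.0 was an alternative. Neighbouring classes were compared by an exact sign-flip permutation test (scipy 1.17.1). Shares and ratios have exact 95% intervals that cover counting error only. The 95% intervals of fold changes take a normal distribution with the SE of the estimate, and are too narrow where degrees of freedom are few. Sums held 313882 to 1300804 UMIs in PV and 9700841 to 42763049 in pyramidal nuclei, so precision differs between classes. Each group was 1 pooled library, so p-values rest on the spread between libraries of different groups. edgeR pools its estimate of that spread over all genes, so the p-value of a gene rests only in part on that gene's own spread. Class comparisons had library as a block, and comparisons of conditions had cohort, housing and maternal activity as terms. The scripts were tested on simulated data.

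The text names the 5 genes, up to 4 genes of each list per comparison with the smallest adjusted p, and the 3 genes most like each member. The members and lists were chosen with earlier results of these data known. For each class comparison 14 alternatives were planned. Further ones were chosen after seeing the data: single cohorts, removal of the trend on gene span and single pyramidal classes. In the SST and layer 2/3 classes, clusters were likewise left out or added after seeing the data. Doublets (1.09% to 6.75% of nuclei) were kept, and removed in an alternative. Some listed genes are not reported here. Gene positions came from GENCODE M21 and promoters from RefSeq (GRCm38.p6), which had windows for 4 of the 5 genes.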

Additional observations from a re-analysis of the deposited data

Results flagged for a closer look

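Kcnq5 and Kcnc2 were listed because an effect of the same comparison differed between groups by a test of the difference itself. That test fits the libraries of cohort 1 exactly, so its p-values hold no measure of the spread between them. In pyramidal nuclei the effect of maternal running differed between cohort 2 and cohort 1 by -0.74 on the log2 scale for Kcnq5 (adjusted p = 9.96e-05, edgeR) and by -0.80 for Kcnc2 (adjusted p = 0.000498). In both cases, summed over all pyramidal nuclei, the Run library was higher than the Sed library in the 1 pair of cohort 1. It was lower in the 2 pairs of cohort 2, where the ratios of single classes lay on both sides of 0. With the trend on gene span removed, an alternative chosen after seeing the data, the differences between cohorts were -0.56 and -0.65. Groups of a single library allowed no search for outlying samples within a group.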

How the results depend on the processing

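Of the counts and 1 share recomputed under the alternatives, 289 counts stayed within 1.5 times the main count, 16 became smaller and 5 larger, the share moved, and of the single values 627 kept direction and side of the threshold, 40 lost the call, 19 gained it, 4 shares moved and 14 changed sign. With thinned nuclei, 3 members instead of 5 were called in VIP against pyramidal and in SST against PV nuclei, and the latter also gave 3 in cohort 2 alone with the unnamed cluster added. For cohort in PV nuclei, 0 members were called under DESeq2, with at least 1000 genes per nucleus or with no mitochondrial limit, and 2 with thinned nuclei. For the maternal effect by cohort in pyramidal nuclei, 1 member was called in layer 6 alone and 1 in the Rxfp1 cluster alone. In layer 2/3 without the cluster of 4260 nuclei in cohort 2, 1 was called. In near-projecting nuclei alone 0 were called, while 3 were called under 6 other settings. With each library left out in turn, 3 to 5 members were called in SST against PV, 0 to 2 in Run against Sed pyramidal nuclei, 0 to 5 for cohort in pyramidal nuclei and 0 to 2 for cohort in PV nuclei. Leaving out a cohort 1 library leaves that cohort with 1, which the cohort term then fits exactly. In the main fits, 24.9% of all genes were called in SST against PV and 0% in Run against Sed pyramidal nuclei. For cohort it was 37.9% in pyramidal and 26.8% in PV nuclei. Calls over all genes also moved with a library left out, as given above for pyramidal nuclei. The changes in member counts are therefore no result about the members. The interactions were not run with a library left out, since no residual degree of freedom would remain.

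Among the changes of sign were the following. For cohort, Kcnq5 in pyramidal nuclei ranged from -0.56 (without Sed GH of cohort 1) to 0.18 (without Run GH of cohort 1) with a library left out and was 0.28 with the span trend removed, and Kcnq3 in PV nuclei was 0.031 with that trend removed. The PV values of the maternal effect by cohort were then 0.20 for Kcnq5 and 0.051 for Kcnq3, beside -0.02 and -0.15. In Run against Sed pyramidal nuclei, Kcnc2 ran from -0.35 to 0.10 and Kcnq5 reached -0.17 with a library left out, beside -0.08 and 0.07. For the maternal effect by cohort, Kcnc1 was -0.023 in layer 6 and -0.17 in near-projecting nuclei, and Kcnc2 was 0.93 in near-projecting nuclei. Kcnc4 was 0.0080 under DESeq2, 0.051 with at least 1000 genes, 0.024 with clusters from log-normalized values and 0.081 with thinned nuclei. It was 0.20 in layer 2/3 (0.27 and 0.20 with a cluster left out or added). Kcnq3 in layer 6 against layer 2/3 was 0.15 without the layer 2/3 cluster of 4260 nuclei in cohort 2. The median share of PV nuclei with Kcnc2 was 99.3% without thinning.

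Over all genes, thinning lowered the calls from 6806 to 4200 in PV, from 5396 to 3080 in SST, from 4670 to 2654 in VIP and from 4240 to 2357 in NPY nuclei against pyramidal nuclei. In NPY nuclei DESeq2 called 1516 higher and 1648 lower genes, against 1541 and 2699 with edgeR. DESeq2 called 48 genes in Run against Sed pyramidal nuclei where edgeR called 0, 422 instead of 1765 for the maternal effect by cohort in pyramidal nuclei, 754 instead of 2557 for cohort in PV nuclei, and 0 instead of 130 for the maternal effect by cohort in PV nuclei. The cause was not tested. The terms for cohort and housing already pair each Run library with its Sed library, and class comparisons had library as a block; beyond that no paired analysis was possible because each group holds 1 library. Few UMIs limit Kcnc4 in interneurons, and 2 residual degrees of freedom limit the comparisons of conditions.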
